A study of Saccharomyces cerevisiae with 4 samples.

Results

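A set of 10 genes by which Saccharomyces cerevisiae obtains, releases and stores phosphate was followed here by ribosome profiling, in which nuclease digests the mRNA outside ribosomes and the fragments inside them are sequenced. The members were chosen by name: the acid phosphatases PHO5, PHO3, PHO11 and PHO12, the alkaline phosphatase PHO8, the transporters PHO84 and PHO89, the transport regulator SPL2, and VTC1 and VTC3 of the polyphosphate polymerase. All 10 were found among the 6600 coding sequences of the table, and 5 of the 10 had enough fragments to be tested. The study compared 2 libraries of a wild type (WT) with 2 of a strain, called Mutant, whose OAZ1 gene is read in frame instead of by a ribosomal frameshift. Both strains were of the 74D-694 background, were grown in synthetic medium to mid-exponential phase, and received cycloheximide, which holds ribosomes in place, at 50 µg/mL. OAZ1 encodes antizyme, which directs ornithine decarboxylase to the proteasome. The labels do not say whether the libraries of a strain came from separate cultures or clones, so p-values reflect only the spread among these libraries, and that spread may be technical. Libraries of mRNA were not used here, so more ribosomes per message and more of the message cannot be told apart.

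In budding yeast, phosphate supply is read by the cyclin and kinase pair Pho80 and Pho85. When phosphate is plentiful this kinase phosphorylates the transcription factor Pho4 and keeps it out of the nucleus. When phosphate is scarce the inhibitor Pho81 blocks the kinase, and Pho4, with Pho2, switches on genes for secreted phosphatases, high-affinity transport and polyphosphate synthesis. Inositol pyrophosphates carry the signal of phosphate status, and polyphosphate in the vacuole serves as the store.

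Pho4 binds the letters CACGTG, or CACGTT with lower affinity, and these were searched on both strands in the 600 bases before each start codon of the reference. CACGTG reads the same on both strands, so each such site was counted once, and no position can match both motifs. Of the 10 members, 9 held at least 1 match and 8 held 2 or more. Over 5914 genes, the shares were 24.6% with at least 1 match and 3.64% with 2 or more. PHO3 was the member with none, SPL2 and PHO84 held 4 each, VTC3 held 3 and VTC1 held 1. Most of these genes are textbook targets of Pho4, so the matches describe the reference sequence and are no result of the libraries. The 5 stretches below, 240 bases each from the RefSeq copy of the R64 genome (sacCer3), show members of differing levels, given next: PHO84, SPL2 and PHO5, with fewer than 100 counts each over the 4 libraries, and VTC1 and VTC3, with 4848 and 2574. Each is written 5′ to 3′ on the strand of its gene, and capitals mark the matches. They lie at chrII:431074-431313 (PHO5), chrXIII:25997-26236 (PHO84), chrVIII:375222-375461 (SPL2), chrV:302467-302706 (VTC1) and chrXVI:517124-517363 (VTC3), of which that of VTC1 is on the plus strand and the other 4 are on the minus strand.
PHO5: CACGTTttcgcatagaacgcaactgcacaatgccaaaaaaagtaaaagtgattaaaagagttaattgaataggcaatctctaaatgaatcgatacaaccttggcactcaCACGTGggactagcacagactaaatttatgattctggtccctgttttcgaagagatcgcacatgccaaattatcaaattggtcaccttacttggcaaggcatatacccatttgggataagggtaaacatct
PHO84: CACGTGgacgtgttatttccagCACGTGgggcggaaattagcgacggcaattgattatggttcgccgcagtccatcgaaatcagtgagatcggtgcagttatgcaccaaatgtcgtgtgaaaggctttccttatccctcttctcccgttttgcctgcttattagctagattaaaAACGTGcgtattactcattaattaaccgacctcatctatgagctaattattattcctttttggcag
SPL2: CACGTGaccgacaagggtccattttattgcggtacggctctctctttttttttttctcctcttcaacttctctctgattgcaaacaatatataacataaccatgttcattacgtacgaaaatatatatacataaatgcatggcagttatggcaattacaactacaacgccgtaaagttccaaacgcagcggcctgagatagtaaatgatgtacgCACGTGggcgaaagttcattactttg
VTC1: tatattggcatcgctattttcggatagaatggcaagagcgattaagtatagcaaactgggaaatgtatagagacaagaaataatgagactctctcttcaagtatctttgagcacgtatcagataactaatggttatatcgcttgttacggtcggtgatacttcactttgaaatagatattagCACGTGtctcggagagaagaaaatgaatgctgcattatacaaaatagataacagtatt
VTC3: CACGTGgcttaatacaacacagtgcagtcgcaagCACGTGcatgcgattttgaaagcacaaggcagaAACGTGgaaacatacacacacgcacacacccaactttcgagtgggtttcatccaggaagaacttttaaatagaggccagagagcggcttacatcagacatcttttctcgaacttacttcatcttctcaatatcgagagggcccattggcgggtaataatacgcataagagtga
The CACGTG match of PHO5 began 253 bases before the start codon and its CACGTT match 362 bases before it. The printed stretch of SPL2 holds the matches at 361 and 147 bases, and a pair nearer the gene, at 90 and 31 bases, is not printed. That of PHO84 holds 3 of its 4 matches, and the CACGTT match at 587 bases is not printed.

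The libraries held 29671498 (WT replicate 1), 10202557 (WT replicate 2), 7571371 (Mutant replicate 1) and 2826895 (Mutant replicate 2) counts. Counts are given below either as CPM, meaning counts scaled to a common total of 1e6, after TMM adjustment between libraries, or as plain counts where they were few. A gene with no count may still have had up to 3, or 0.101 CPM in WT replicate 1 and 1.06 CPM in Mutant replicate 2, and these limits and the Poisson intervals cover counting error only. OAZ1 had 12.7 and 10.7 CPM in the WT pair and 20.5 and 18.1 CPM in the Mutant pair, which did not pass over all genes (adjusted p = 0.755, edgeR's quasi-likelihood test). The library of WT replicate 1 differed from the other 3: genes whose protein has a hydrophobic segment, a mark of membrane and secreted proteins, held 20.7% of its counts and 16.6% to 17.2% of the others'. The SD of log2 differences over 4603 genes was 0.509 between the WT libraries and 0.223 between WT replicate 2 and Mutant replicate 1. Most members encode membrane or secreted proteins, so the result of each tested member is also given without WT replicate 1.

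PHO84, PHO89 and SPL2, which serve or regulate phosphate transport, had few or no counted ribosome-protected fragments in either strain. PHO84, the high-affinity proton-coupled phosphate transporter (YML123C, chrXIII:24037-25800, a single coding exon on the minus strand), had 4 and 0 counts in WT replicates 1 and 2 and 1 and 0 counts in Mutant replicates 1 and 2. In the deepest library, WT replicate 1, those 4 counts are 0.135 CPM of the total, with an exact Poisson 95% interval from 0.0367 to 0.345. No 28-base stretch of PHO84 occurs in another coding sequence of the reference. The reference is that of the laboratory strain S288C, and the sequence of these genes in 74D-694 was not used here. PHO89, the sodium-coupled phosphate transporter (YBR296C, chrII:796798-798522, minus strand), had 55 and 9 counts in the WT pair and 5 and 0 counts in the Mutant pair. Its plain shares were 1.85 CPM (Poisson interval 1.40 to 2.41), 0.882 CPM (0.403 to 1.68) and 0.660 CPM (0.214 to 1.54) in WT replicates 1 and 2 and Mutant replicate 1. The 0 in Mutant replicate 2 allows up to 1.06 CPM, so only WT replicate 1 lay above what that library could miss. SPL2, which restrains low-affinity phosphate transport (YHR136C, chrVIII:374654-375100, minus strand), had 7 and 7 counts in the WT pair and 2 and 0 in the Mutant pair. PHO89 reached the filter only where a library other than WT replicate 1 was left out. A group of 1 library lets in a gene that passes the cutoff in 1 library, which PHO89 did in WT replicate 1 alone. Its entry thus rested on the library where it was high, and no call is read from these fits. PHO89 stood at -1.94 on the log2 scale without WT replicate 2 and -1.15 without Mutant replicate 2. Without Mutant replicate 1 the remaining Mutant library had a count of 0, so no fold is given. A difference between the strains was not detectable at this depth for PHO84 or SPL2, and for PHO89 the intervals of WT replicate 2 and Mutant replicate 1 overlapped.

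**Figure D1:**
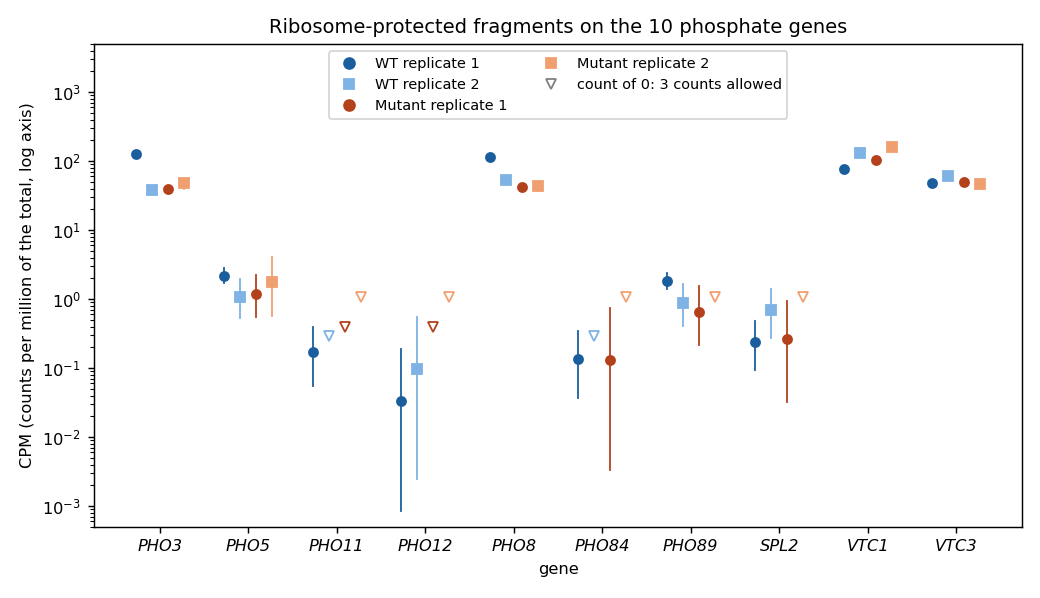
CPM of the 10 members in each library, as plain shares of the library total on a log axis; bars are exact Poisson 95% intervals of the count and open triangles mark the 3 counts that a count of 0 allows. PHO3, PHO8, VTC1 and VTC3 lie near or above 40 CPM in all 4 libraries, PHO5 at 1.08 to 2.19 CPM, and each of the other 5 genes is at 0 in at least 1 library.

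PHO11 and PHO12, repressible acid phosphatases close to the ends of chromosomes I and VIII, were also nearly empty. PHO11 (YAR071W, chrI:225460-226863, plus strand) had 5 counts in WT replicate 1 and 0 in the other 3 libraries. PHO12 (YHR215W, chrVIII:552099-553502, plus strand) had 1 count in each WT library and 0 in both Mutant libraries. Both groups were at or near the limit of a count of 0, so no fold is given. The coding sequences of the pair differ at 4 of 1404 bases in the reference, their longest identical run is 786 bases, and 92.2% of the 28-base stretches of PHO12 occur in PHO11. How reads with several matches were treated is not given in the sources used here. Where such reads were dropped, most fragments of these 2 genes could not have been counted, so their low counts do not show that their mRNAs carried few ribosomes. The stretch from base 1210 to base 1269 of the coding sequence holds 2 of the 4 differing bases and is shown for all 4 acid phosphatases, 5′ to 3′ on the coding strand, with capitals at the 7 positions where they do not all have the same base. It lies at chrI:226669-226728 (PHO11), chrVIII:553308-553367 (PHO12), chrII:429683-429742 (PHO5) and chrII:427833-427892 (PHO3).
PHO11: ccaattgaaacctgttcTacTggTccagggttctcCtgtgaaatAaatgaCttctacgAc
PHO12: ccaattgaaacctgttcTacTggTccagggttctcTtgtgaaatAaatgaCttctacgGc
PHO5: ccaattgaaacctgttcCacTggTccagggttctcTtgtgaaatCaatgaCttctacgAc
PHO3: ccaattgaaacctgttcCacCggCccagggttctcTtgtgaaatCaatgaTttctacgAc
PHO5 and PHO3, neighbours in tandem on chromosome II, are 86.5% identical over the same length, and 16.8% of the 28-base stretches of PHO5 occur in PHO3.

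Of the counts assigned to the acid phosphatases, PHO3 held nearly all in every library, with the limit just given on those of PHO11 and PHO12. PHO3 (YBR092C, chrII:427698-429101, minus strand) is the constitutive enzyme, whose expression follows thiamine and not phosphate. It held 98.2% and 97.0% of the summed counts of the 4 acid phosphatases in WT and 97.0% and 96.4% in Mutant. PHO5 (YBR093C, chrII:429548-430951, minus strand), the main repressible acid phosphatase and a classic model of promoter chromatin, had 65 and 11 counts in the WT pair and 9 and 5 in the Mutant pair. PHO3 stood 58.4-fold and 34.9-fold above PHO5 in WT and 32.8-fold and 27.0-fold above it in Mutant, as a ratio of levels per length. The genes share sequence, so the count of PHO5 is uncertain, and how far fragments of PHO3 enter it was not tested.

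Between the strains, PHO3 and PHO8 had the lowest fold changes of the 5 tested members, and neither passed the test, in which edgeR called 0 of 5233 genes higher and 0 lower (0% in each direction). PHO3 had 126.9 and 37.4 CPM in WT replicates 1 and 2, and 37.9 and 49.9 CPM in Mutant replicates 1 and 2. WT replicate 1 was high and the other WT library lay below both Mutant libraries, so the groups overlapped. The means were 82.1 ± 63.3 CPM in the WT pair and 43.9 ± 8.54 CPM in the Mutant pair (SD, n = 2 each), with a log2 fold change of -0.92 (95% interval -2.25 to 0.40, edgeR adjusted p = 0.755). Without WT replicate 1 the log2 fold change of PHO3 was 0.20, on the other side of 0 (edgeR adjusted p = 0.989), and without WT replicate 2 it was -1.56 (edgeR adjusted p = 2.52e-14). Which WT library is kept thus set both the direction and the call. PHO5 had 2.17 and 1.07 CPM in the WT pair and 1.16 and 1.85 CPM in the Mutant pair, overlapping groups with a log2 fold change of -0.32 (-1.70 to 1.06, edgeR adjusted p = 0.924). Without WT replicate 1 its value was 0.32 and without Mutant replicate 1 it was 0.13, both on the other side of 0.

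PHO8, the alkaline phosphatase of the vacuolar membrane (YDR481C, chrIV:1418550-1420250, minus strand), had 115 and 52.3 CPM in the WT pair and 40.8 and 45.9 CPM in the Mutant pair. Both Mutant libraries lay below both WT libraries, but WT replicate 2 was closer to both Mutant libraries than to WT replicate 1. It was the only tested member whose groups did not overlap; over all 5233 genes tested, 36.9% did not overlap, 19.1% with Mutant higher and 17.9% with Mutant lower. The log2 fold change was -0.96 (SE 0.38, 95% interval -1.88 to -0.05) at an unadjusted p of 0.0423 and an adjusted p of 0.755 (edgeR). It was -0.29 without WT replicate 1 (edgeR adjusted p = 0.907) and -1.42 without WT replicate 2 (edgeR adjusted p = 4.7e-12). At an unadjusted p under 0.05 edgeR placed 1 of the 5 tested members and 285 genes, 5.45% of those tested.

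**Figure D2:**
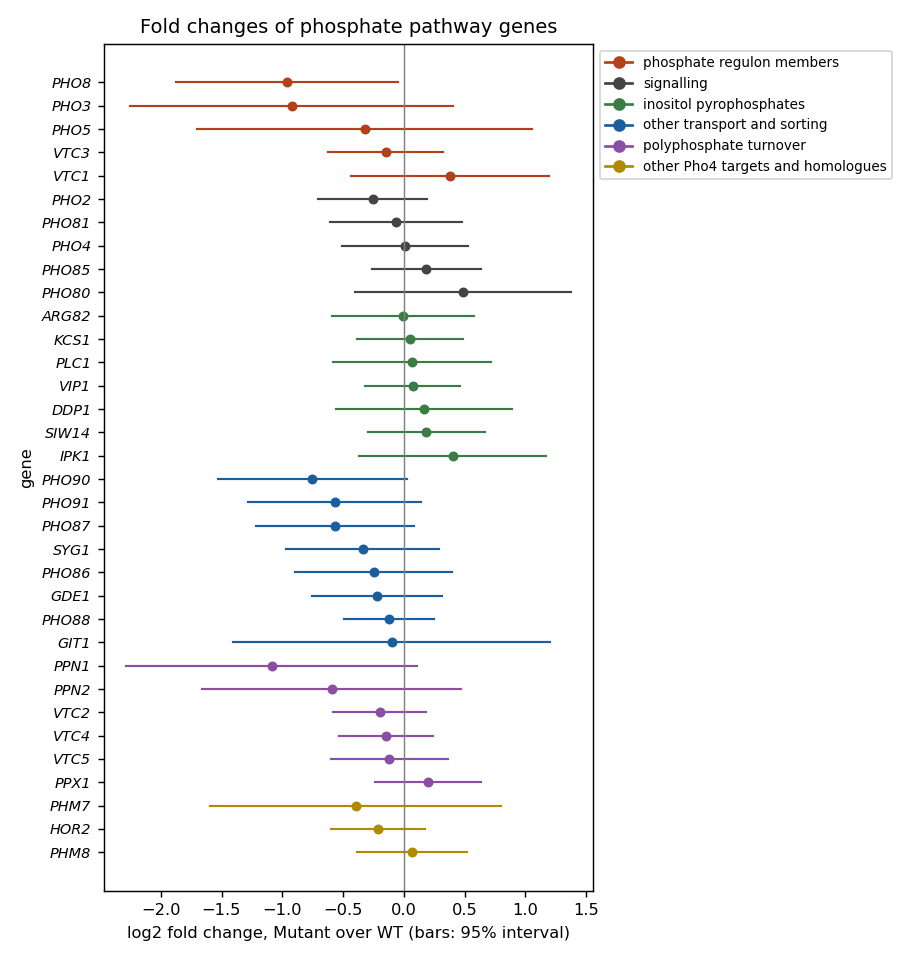
Log2 fold changes of Mutant over WT (x axis) with 95% intervals from edgeR's quasi-likelihood fit, for the 5 tested members and 29 other tested genes of phosphate signalling, transport and storage. Only the interval of PHO8 leaves out 0, from -1.88 to -0.05, before adjustment over all genes.

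VTC1 and VTC3 encode subunits of the vacuolar transporter chaperone complex, which makes polyphosphate from ATP and passes it across the membrane into the vacuole. Vtc4 is its catalytic subunit, Vtc1 a small membrane subunit, Vtc2 and Vtc3 alternative subunits, and Vtc5 stimulates it. VTC1 (YER072W, chrV:302806-303195, plus strand) had 76.0 and 129.2 CPM in WT replicates 1 and 2, and 102.3 and 166.1 CPM in Mutant replicates 1 and 2. WT replicate 1 was lowest and Mutant replicate 2 highest, and WT replicate 2 lay between the Mutant libraries. The log2 fold change was 0.38 (95% interval -0.43 to 1.198, edgeR adjusted p = 0.841). It was 0.03 without WT replicate 1, 0.80 without WT replicate 2 (edgeR adjusted p = 0.000483), 0.70 without Mutant replicate 1 and -0.0021 without Mutant replicate 2. VTC3 (YPL019C, chrXVI:514511-517018, minus strand) had 48.0 and 60.8 CPM in the WT pair and 49.0 and 48.8 CPM in the Mutant pair. These values were the least spread of the members, with 54.4 ± 9.08 CPM in the WT pair and 48.9 ± 0.138 CPM in the Mutant pair (SD, n = 2 each) and a log2 fold change of -0.15 (-0.62 to 0.32, edgeR adjusted p = 0.888). Without WT replicate 1 it was -0.31, and without WT replicate 2 it was 0.03.

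Per length, VTC1 had the most counted fragments of the complex and of all 10 members. These levels are fragments per length and not amounts of mRNA or protein. Whether the short coding sequence of VTC1, 390 bases, raises its level was not tested. Its level was 196.5 and 333.8 CPM per kb of coding sequence in WT and 269.9 and 407.3 in Mutant, as plain shares of the total. VTC4 followed at 68.8 to 89.1 CPM per kb and VTC2 at 46.5 to 59.9, while VTC5 had 19.4 to 27.5 and VTC3 18.6 to 24.4. VTC1 alone made up 50.3% and 64.5% of the summed per-length levels of the 5 subunits in WT and 60.0% and 72.7% in Mutant. The ratio of VTC1 to VTC4 was 2.21 and 4.23 in WT and 3.33 and 5.92 in Mutant, so the groups overlapped and the libraries of each strain were far apart. The ratio of VTC2 to VTC4 held between 0.634 and 0.688 in all 4 libraries. Among the members, VTC1 was followed by PHO3, PHO8, VTC3 and PHO5 by the mean of the 4 libraries. The ranges of PHO3 and PHO8 overlapped, with PHO3 above PHO8 in 3 of 4 libraries, while VTC1 lay above PHO3, PHO8 above VTC3, and VTC3 above PHO5 with no overlap. Of 5917 genes, 90.7% had a lower mean level per length than VTC1, 65.7% than PHO3, 61.8% than PHO8, 48.7% than VTC3, 12.3% than PHO5 and 5.86% than PHO84. The remaining members, SPL2, PHO89, PHO11 and PHO12, overlapped with their neighbours in that order and had at most 11.0% of genes below them.

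**Figure D3:**
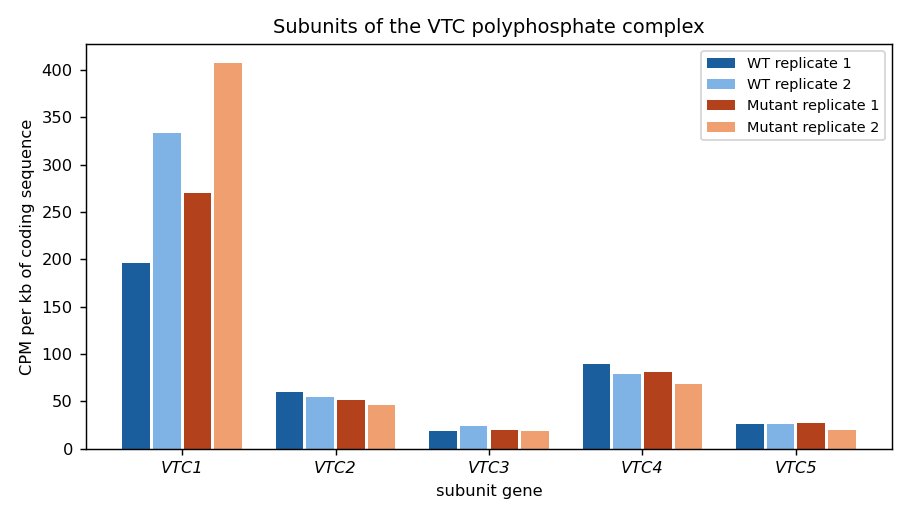
CPM per kb of coding sequence, as plain shares of the total, for the 5 subunit genes of the VTC complex in each library. VTC1 ranges from 196.5 to 407.3, and VTC2, VTC3, VTC4 and VTC5 stay at or below 89.1 in all 4 libraries.

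The displacement of WT replicate 1 differed among the members. Its log2 CPM lay above the mean of the other 3 libraries by 1.61 for PHO3, 1.32 for PHO8 and 0.66 for PHO5. The same difference was -0.13 for VTC3 and -0.77 for VTC1. The median of this displacement was 0.37 over 1503 tested genes with a hydrophobic segment and -0.07 over 3730 without one. PHO3, PHO8, VTC1 and VTC3 carry a segment by the measure used, and PHO5, a secreted protein, reached a hydropathy of 1.395 and missed the threshold of 1.6. VTC1 has 390 coding bases, and over the 119 tested genes with a segment and at most 500 coding bases, a class chosen after the data were seen, the median displacement was -0.27. The part of protein class or length in the values of the members was not tested. With scaling factors taken only from genes with a segment, the median of all genes moved to 0.18, and the members were at -0.71 for PHO8, -0.64 for PHO3, -0.06 for PHO5, 0.02 for VTC3 and 0.53 for VTC1, none past the threshold. Relative to that shift VTC3 stayed below the median of all genes.

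**Figure D4:**
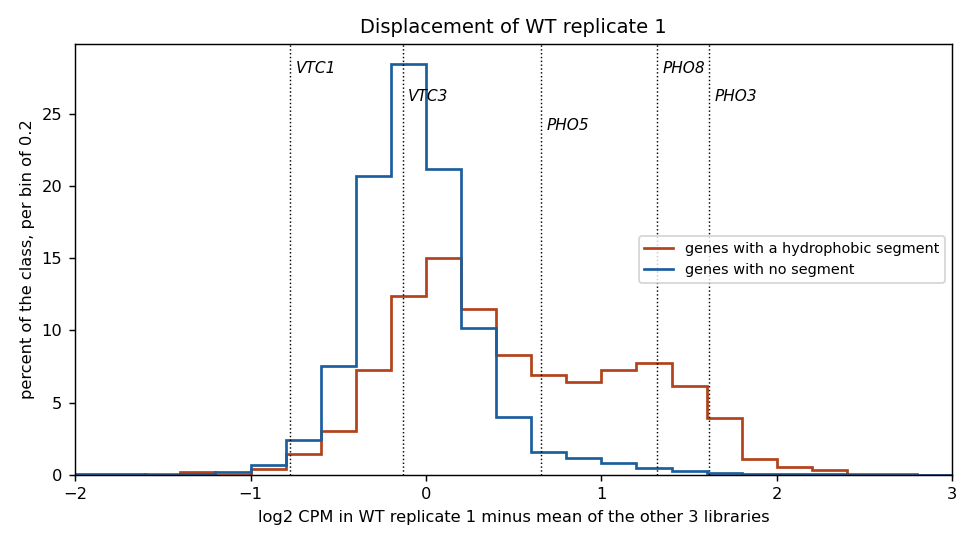
Distribution of the log2 CPM of WT replicate 1 minus the mean of the other 3 libraries (x axis), as the percent of tested genes with or without a hydrophobic segment in each bin of 0.2 (y axis), with dotted lines at the 5 tested members. PHO3 (1.61) and PHO8 (1.32) lie in the right shoulder of the genes with a segment, and VTC1 (-0.77) to the left of both peaks.

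Beside the 0 genes called by edgeR, 90 were higher and 195 lower at an unadjusted p under 0.05, and DESeq2 called 0 higher and 4 lower, none of them a member. Of the 5 tested members 1 lay above 0 and 4 below, with a median log2 fold change of -0.32, where the median over all genes was -0.01 and over genes with a segment -0.23. The count moved to 3 above and 2 below without WT replicate 1, with a median of 0.03. The members therefore did not all share a direction between the strains, either with all libraries or without WT replicate 1. Only without Mutant replicate 2 did all 5 lie below 0, with VTC1 at -0.0021. The 5 members that did not reach the filter are in none of these counts.

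**Figure D5:**
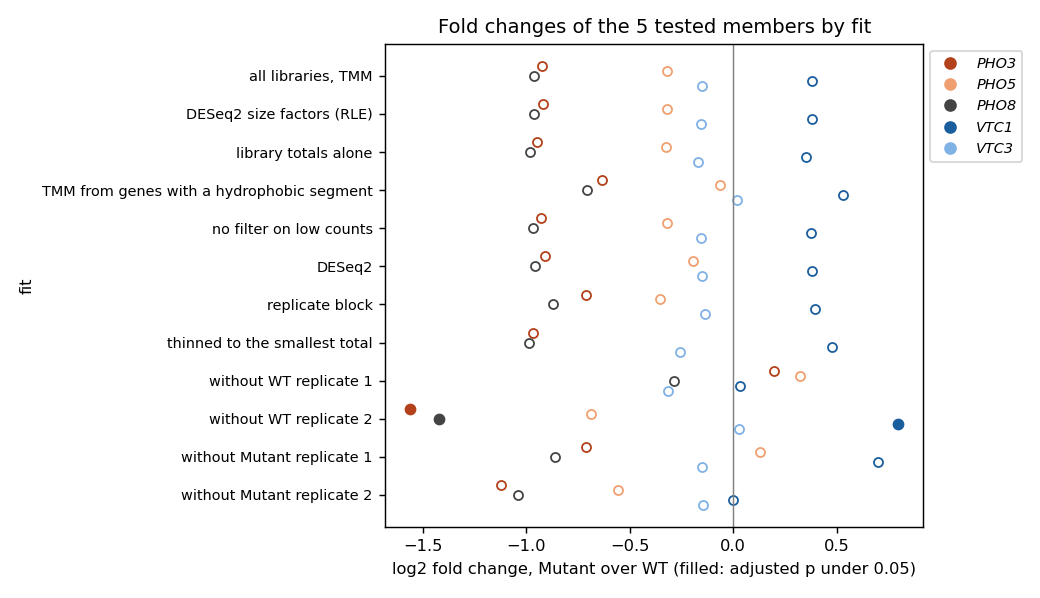
Log2 fold change of Mutant over WT for the 5 tested members (x axis) under each fit (y axis); filled points have an adjusted p under 0.05 in that fit. PHO3, PHO8 and VTC1 are filled only in the fit without WT replicate 2, and without WT replicate 1 PHO3 stands at 0.20 and PHO8 at -0.29.

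The genes that read phosphate status and set Pho4 activity were measured in all libraries, and none passed the test. Of the 5 signalling genes, 3 lay above 0 and 2 below, with a median log2 fold change of 0.01. PHO2, the homeodomain partner of Pho4, had 40.2 and 36.1 CPM in the WT pair and 32.7 and 31.1 CPM in the Mutant pair, a log2 fold change of -0.26 (edgeR adjusted p = 0.798). PHO80, the cyclin, had 2.98 and 3.11 CPM in the WT pair and 3.47 and 5.55 CPM in the Mutant pair, a value of 0.49 (edgeR adjusted p = 0.806) that rests on 15 to 89 counts per library. In both genes the groups did not overlap, 2 of the 5 signalling genes beside the 36.9% of all genes tested. The value of PHO80 ran from 0.19 without Mutant replicate 2 to 0.87 without Mutant replicate 1. Of 7 genes in the pathway that makes and breaks down inositol pyrophosphates, 6 lay above 0 and 1 below, with a median of 0.07. None of the 7 carries a hydrophobic segment, and of the 3730 tested genes without one, 2136 lay above 0. IPK1, the inositol pentakisphosphate kinase, had 3.04 and 3.41 CPM in the WT pair and 4.11 and 4.44 CPM in the Mutant pair (log2 fold change 0.40, edgeR adjusted p = 0.820). SIW14, an inositol pyrophosphate phosphatase, had 19.02 and 20.7 CPM in the WT pair and 22.8 and 22.2 CPM in the Mutant pair (0.18, edgeR adjusted p = 0.865).

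The list of other phosphate transport and of the sorting of transporters holds 8 genes, among them the enzyme GDE1. All 8 were highest in WT replicate 1 and had fold changes below 0, none past the threshold with all libraries. Over all genes tested, 34.2% were highest in that library, and over those with a segment, which includes all 8, 62.9% were. Fold changes lay below 0 for 2698 of all 5233 genes tested and for 1104 of the 1503 with a segment. PHO90, a low-affinity transporter of the plasma membrane, had 39.1 and 23.6 CPM in the WT pair and 21.6 and 15.2 CPM in the Mutant pair. Its log2 fold change was -0.75 (edgeR adjusted p = 0.755) with all libraries and -0.30 without WT replicate 1. Its paralogue PHO87 had 39.2 and 29.8 CPM in the WT pair and 27.3 and 18.5 CPM in the Mutant pair, with a log2 fold change of -0.57 (edgeR adjusted p = 0.755), or -0.31 without WT replicate 1. Without WT replicate 2, PHO90 stood at -1.02 and PHO87 at -0.71. For both transporters each Mutant library was below each WT library, as for 3 of the 8 genes, 17.9% of all genes tested and 431 of the 1503 with a segment. In both, WT replicate 2 lay nearer to Mutant replicate 1 than to WT replicate 1.

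Among the genes of polyphosphate turnover other than VTC1 and VTC3, 5 of 6 lay below 0 and 1 above, with a median log2 fold change of -0.17. The 5 below 0 carry a hydrophobic segment, and of the 1503 tested genes with one, 1104 lay below 0. PPN1, the vacuolar endopolyphosphatase, stood at 109 and 36.3 CPM in WT replicates 1 and 2, against 34.9 and 33.7 CPM in the Mutant pair. Its log2 fold change of -1.09 (edgeR adjusted p = 0.755) was the lowest of the pathway genes and came to -0.08 without WT replicate 1. PPN2, another vacuolar endopolyphosphatase, had 32.8 and 13.3 CPM in the WT pair and 14.5 and 16.6 CPM in the Mutant pair, at -0.59 (edgeR adjusted p = 0.805) with all libraries and 0.19 without WT replicate 1. Without WT replicate 2, PPN1 stood at -1.66 and PPN2 at -1.10. In both polyphosphatases, as in PHO3, WT replicate 1 was the highest library, as it was for 62.9% of the tested genes with a segment. WT replicate 2 lay above both Mutant libraries in PPN1 and below both in PPN2 and PHO3. The remaining VTC subunits were nearer to 0, with log2 fold changes of -0.20 for VTC2, -0.15 for VTC4 and -0.12 for VTC5, which was at 0.06 without Mutant replicate 2. Of 5 further Pho4 targets and homologues, PHM6 and DIA3 did not reach the filter, with 0 to 14 and 2 to 37 counts per library. HOR2, a glycerol phosphatase that RefSeq lists as GPP2, had a log2 fold change of -0.21 (edgeR adjusted p = 0.806). PHM7, a membrane protein, had a value of -0.40 (edgeR adjusted p = 0.886) from 5 to 80 counts per library, and stood at 0.15 without WT replicate 1.

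PHO84, PHO5 and SPL2 had mean counts under 100, so no gene of like profile was sought for them. For the 4 members above that mean, a choice made after their values were seen, likeness was measured over the 4 libraries as the Euclidean distance between centred log2 CPM values, among 4602 other genes. The nearest genes to PHO3 were TAG1 (distance 0.08), EMP70 (0.12) and GPI13 (0.17), and PHO8 ranked 145 at 0.50. The nearest to PHO8 were CDC1 (0.03), SUR7 (0.04) and LHS1 (0.04). Those nearest to VTC1 were STP3 (0.16), DIF1 (0.20) and MRP17 (0.21), with VTC3 at rank 1782. VTC3 was nearest to CCA1 (0.02), DOT6 (0.04) and IES2 (0.04), and the other members ranked between 3929 and 4522 from it. No member was among the 3 nearest genes of another. With 4602 genes to choose from, that says little about whether the members vary together.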

How the data were processed

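The deposited values are whole-number counts of ribosome-protected fragments for each coding sequence, in a single table with a column for each library and no normalization by the authors. Bowtie2, DESeq2 and sacCer3 are named in the submitters' processing notes. The versions, counting tool, strand setting and treatment of reads with several matches are not stated there. Data lines had doubled tabs and the header single ones, so the 4 column names were matched by order to the fields that held values, and every library's values rest on that reading. Of 6600 rows, 5917 matched RefSeq's R64 annotation by systematic name.

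The test across genes was that of edgeR 4.0.16, run in R 4.3.3 (quasi-likelihood test, two-sided, TMM, filterByExpr with minimum count 10 and total 15, Benjamini-Hochberg at 0.05 over 5233 genes). Standard errors were the log2 fold change divided by the square root of F, and intervals used the fit's degrees of freedom. DESeq2 1.42.0 was an alternative. Both were run on data simulated with the same spread in every library, which does not test how they handle a library such as WT replicate 1. Log2 CPM had a prior count of 2. A hydrophobic segment was a 19-residue window of mean Kyte-Doolittle hydropathy of at least 1.6 in the translated reference. Other values used Python 3.11.15, pandas 2.3.3 and SciPy 1.17.1. The members, gene lists and motifs were chosen with earlier results of these data known. From each list of other pathway genes, the 2 with the smallest p were named, plus VTC2, VTC4 and VTC5. Alternatives are in the closing section.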

Additional observations from a re-analysis of the deposited data

How the results depend on the processing

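The 5 tested members were refitted under 11 alternatives, giving 54 values, since PHO5 missed the filter after thinning all libraries to the smallest total. Of these, 45 kept their direction and side of the threshold, 3 passed it (all without WT replicate 2) and 6 changed sign. Leaving out 1 library in turn, PHO3 ran from -1.56 to 0.20, PHO5 from -0.69 to 0.32, VTC1 from -0.0021 to 0.80 and VTC3 from -0.31 to 0.0294 on the log2 scale, while PHO8 stayed below 0. In these fits the lone library of a group was assumed to vary like the other group, and the cause of the changes was not tested. Over all genes the calls ranged from 0 to 228 higher and 0 to 780 lower: 17 and 22 without WT replicate 1, 228 and 780 without WT replicate 2, and none without either Mutant library. The members above 0 ranged from 0 to 3 and those below 0 from 2 to 6 in these fits. PHO89 was also tested in 3 of these 4, entering through WT replicate 1 alone, where it was high. It stood at -1.94 without WT replicate 2, and no call is read from that. The median over the 5 members ranged from -0.69 (without WT replicate 2) to 0.03 (without WT replicate 1). With TMM from genes with a hydrophobic segment, 3 genes were called higher and 14 lower, 2 members lay above 0, and VTC3 was at 0.0193. DESeq2 called 4 genes lower. With no filter 9 members lay below 0, including PHO89 at -1.64 (edgeR adjusted p = 0.736). Among the 9, the signs of PHO84, PHO11, PHO12 and SPL2 rest on counts at or near 0 in the less deep Mutant libraries and are not read. Under the replicate block edgeR called 0 genes in each direction, 95 higher and 352 lower at an unadjusted p under 0.05, and PHO8 was at -0.87 (edgeR adjusted p = 0.574). The labels do not say that equal numbers share a culture, and the deviations of same-numbered libraries correlated at 0.08 over 4603 genes, so the numbers were not taken as pairs. Depth limits the 5 members under the filter, whose counts summed to 72, 17, 8 and 0 in WT replicates 1 and 2 and Mutant replicates 1 and 2.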
